A study of Mus musculus with 8 samples.

Results

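The comparison described here is that of sympathetic ganglia of E11.5 *Isl1* conditional knockout (CKO) mouse embryos with those of control embryos, read across genes rather than for the cell cycle, neural crest or sympathetic identity genes. CKO embryos were *Wnt1-Cre;Isl1 f/f* and control embryos *Wnt1-Cre;Isl1+/+*, and embryos of both genotypes carried a *Rosa26-tdTomato* reporter, so that Cre was present in both. Cre driven by *Wnt1* acts in the neural crest lineage, and cells of other origin in or around a ganglion keep *Isl1*. Ganglia of about 10 embryos by the labels, and of that number or more by the study's methods, were pooled for a library, tissue without fluorescence was removed under the microscope, and 2 libraries were made per genotype. The labels name the genotypes Isl1-/- and Wild type at embryonic day 11.5 and give neither sex nor batch. The members were found in the deposited table of this stage, which gives 1 FPKM value (a fragment count scaled to transcript length and sequencing depth) per gene and genotype. Of its 13506 rows, 282 with a microRNA or snoRNA symbol and 4 others listed at 0 in a genotype were left out, and 13220 genes were kept. Ganglia of wildtype embryos and of embryos with a hypomorphic allele, *Isl1 f-neo/f-neo*, at E14.5 are used only to set their values beside those of E11.5.

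ISL1 is a LIM homeodomain transcription factor that is switched on in peripheral neurons as they are born. Sympathetic neurons descend from trunk neural crest cells that settle beside the dorsal aorta, and they acquire noradrenergic traits while many still divide. A ganglion dissected at this age lies close to vessels, mesenchyme and the mesonephros, and blood cells, which at this stage include nucleated cells from the yolk sac, circulate through it.

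The authors' program combined the 2 libraries of a genotype, so a gene has 1 value in control and 1 in CKO ganglia, with no replicate check, no error and no known depth. No test was therefore made, and a difference is given on the log2(FPKM + 0.1) scale, CKO minus control, called the log2 ratio here. The added 0.1 makes changes of low genes look smaller. Below, "rose" and "fell" are used of genes at least 1.5-fold apart. By this measure 1597 of 13220 genes (12.1%) fell and 2453 (18.6%) rose, and these shares are the background for every count of genes that follows. The median log2 ratio was 0.05, with quartiles at -0.29 and 0.44. In pooled ganglia fewer cells of a type and less RNA per cell cannot be told apart. Summed FPKM was 446341 for control and 595824 for CKO ganglia. *Rn45s*, a precursor of ribosomal RNA, had 258 and 2829 FPKM. Scaling CKO values so that the sums without erythroid genes matched lowered log2 ratios by 0.23, and by less for low genes. The median was then -0.18, and 2865 genes (21.7%) fell while 1565 (11.8%) rose. The share of changed genes that rose was 60.6% as deposited and 35.3% under that scaling. It was 58.6% under upper quartile scaling and 54.7% when centred on the median. Of the scalings tried, only that without erythroid genes gave more falls than rises. That scaling also offsets rises of other abundant genes, such as cytosolic ribosomal proteins, which summed to 66261 FPKM in control and 104804 in CKO ganglia. Counts scaled without erythroid genes are given below as rescaled counts for many lists.

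*Isl1*, at chr13:117088478-117099896 on the minus strand in mm9, fell from 133 to 40.0 FPKM (log2 ratio -1.73). Defining markers of sympathetic neurons were present in both genotypes. *Dbh*, the enzyme that makes noradrenaline, was at 543 FPKM in control and 594 in CKO, and *Th*, the rate-limiting enzyme of catecholamine synthesis, had 184 and 145. *Phox2a*, a homeodomain factor of autonomic neurons, had 223 and 174 FPKM. The markers of the labelled tissue were thus at high levels in both.

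**Figure D1:**
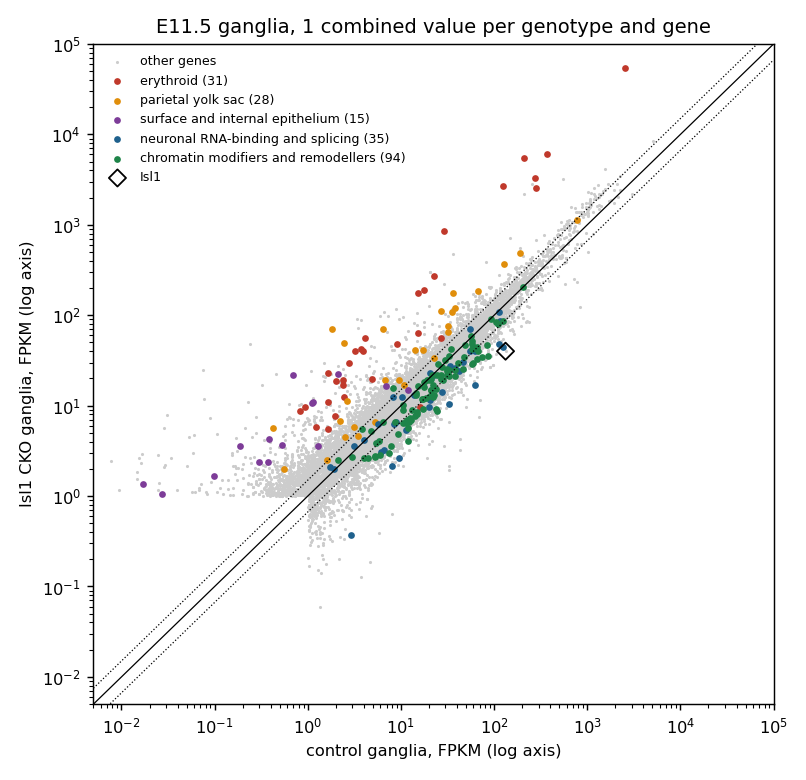
FPKM of each of the 13220 genes in control (x axis) and Isl1 CKO ganglia (y axis) of E11.5 embryos, on log axes, with 1 combined value per genotype. The solid line marks equal values and the dotted lines 1.5-fold differences, colours mark 5 gene lists, and most erythroid, yolk sac and epithelial genes lie above the lines while 41 of the 94 chromatin genes and 16 of the 35 neuronal RNA-binding genes lie below them.

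The size of a difference went with the level of a gene. Of 361 genes with a mean FPKM under 1, 59.3% rose and 19.9% fell. Each gene of the table reached 1 FPKM in at least 1 genotype, so a gene of such a mean was bound to differ. Of 3534 genes with a mean FPKM from 20 to 100, 11.1% rose and 9.65% fell. Among the 774 genes with a mean of 100 or more, 20.7% rose and 5.30% fell.

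Log2 ratios also went with the length of the transcript. The longest protein-coding transcript of the mm9 annotation was found for 12030 genes (91.0%), and Spearman's rho between length and log2 ratio across these genes was -0.31, given as a description because all genes share the same libraries. Of the 1204 genes in the shortest decile, with transcripts up to 1268 bases, 32.6% rose and 4.15% fell, with a median of 0.31. In the longest decile, from 6439 bases, 8.98% of 1203 genes rose and 29.4% fell, with a median of -0.32. Among 4069 genes with a mean FPKM of 20 or more, rho was -0.37, so the relation was not limited to low values. For the genes that had a length and a ratio at both stages, rho was -0.31 at E11.5 and 0.04 at E14.5. Transcript length moves with gene class, and its part in the differences between lists was not tested. Each log2 ratio was therefore also centred on the median of its decile of length, and some list counts and medians are given after centring too. Centred in this way, 11.2% of genes fell and 17.2% rose.

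**Figure D2:**
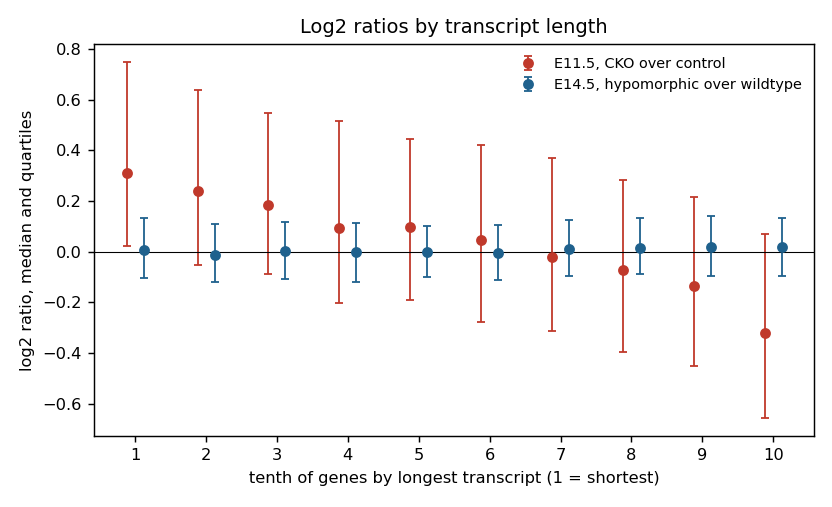
Median log2 ratio (points) and quartiles (bars, lower and upper) of genes in 10 groups of increasing transcript length, for CKO over control at E11.5 and hypomorphic over wildtype at E14.5. Medians fell from 0.31 to -0.32 across the groups at E11.5, and the E14.5 medians stayed close to 0 in all 10 groups.

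Among genes that reached 5 FPKM in control or CKO, the 15 steepest falls had log2 ratios from -4.02 (*Insm2*) to -2.29 (*Prox1*). Transcription factors among them are given first. *Insm2*, a zinc finger factor, fell from 33.2 to 1.96 FPKM. *Pou2f2*, a POU domain factor, fell from 29.1 to 3.56 FPKM, and *Shox2*, a homeobox factor, from 21.5 to 4.05. *Prox1*, a homeobox factor of neural progenitors and of lymphatic vessels, fell from 32.6 to 6.60. *Gata2* and *Tfap2b* were also among the 15, at -3.69 and -2.59 on the log2 scale. *Lmo1*, which encodes a LIM-only protein that binds the same cofactor as LIM homeodomain factors, fell from 43.2 to 4.23 FPKM.

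The other steep falls came from several classes. *Egln3*, a prolyl hydroxylase that marks hypoxia-inducible factors for destruction, fell from 32.8 to 2.13 FPKM. *Plcb4*, a phospholipase C, fell from 68.1 to 7.52. *Fgf15*, a secreted growth factor, fell from 5.80 to 0.387, and *Prap1* from 8.08 to 0.636. *Cbln2*, a secreted organizer of synapses, fell from 19.2 to 2.61, and *Pclo*, a large scaffold of the presynaptic active zone, from 19.8 to 3.75. *Vstm2l* and *Ccnd1* complete the 15, at -2.36 and -2.75 on the log2 scale. All 14 of these genes with a transcript length remained past 1.5-fold when centred by length.

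The promoters of the 2 steepest falls are shown because homeodomain proteins recognise DNA with a TAAT core and because ACGTG is the core of the hypoxia response element. Each runs from 250 bases before to 50 bases after the start of a protein-coding transcript, 5′ to 3′ on the strand of the gene, in mm9. That of *Insm2* lies at chr12:56699654-56699953, plus strand, and that of *Egln3* at chr12:55304798-55305097, minus strand. Capitals mark TAAT or its reverse complement in *Insm2* and ACGTG or its reverse complement in *Egln3*.
Insm2: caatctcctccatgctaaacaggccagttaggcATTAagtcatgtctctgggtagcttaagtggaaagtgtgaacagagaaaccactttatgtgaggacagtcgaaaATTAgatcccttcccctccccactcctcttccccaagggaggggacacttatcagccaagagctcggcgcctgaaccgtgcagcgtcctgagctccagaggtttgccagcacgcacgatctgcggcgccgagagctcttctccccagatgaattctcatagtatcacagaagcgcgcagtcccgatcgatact
Egln3: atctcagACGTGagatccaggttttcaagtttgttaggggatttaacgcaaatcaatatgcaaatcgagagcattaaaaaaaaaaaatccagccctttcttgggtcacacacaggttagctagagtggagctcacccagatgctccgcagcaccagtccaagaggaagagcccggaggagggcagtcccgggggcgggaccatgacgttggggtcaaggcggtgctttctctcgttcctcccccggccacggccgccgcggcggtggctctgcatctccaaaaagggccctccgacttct
The *Insm2* window held 2 matches and the *Egln3* window 1. TAAT was found on either strand in 42.2% of 431 promoters of genes at least 2-fold lower, in 42.3% of the 11921 promoters of genes kept, and in 53.8% of all 22035 promoters of the annotation. At this threshold 3.86% of genes fell and 7.97% rose. The longer palindrome TAATTA, each copy of which also counts as a TAAT, was in 1.86% of promoters of the genes that fell 2-fold and in 2.49% of those kept. ACGTG, which also occurs within some binding sites of basic helix-loop-helix factors, was in 25.1% of the former and 25.3% of the latter. It was in 58.3% of 24 promoters of the hypoxia list described below. That list was written from known hypoxia genes, so its share describes the list and not the change in CKO ganglia. A match is a run of letters and not a measured site.

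The 15 steepest rises ran from 7.16 (*Gkn2*) to 4.51 (*Ctgf*) on the log2 scale, and 10 of them had less than 1 FPKM in control ganglia. A gene under 1 FPKM in control was in the table only through its CKO value. *Gkn2*, a secreted protein of the stomach lining, *Prl8a2* and *Prl7a1*, hormones of decidua and placenta, *Nppa*, the natriuretic peptide of the atrium, and *Slc34a2*, a phosphate carrier of epithelia, were the 5 steepest. *Prl3b1*, a placental lactogen of trophoblast giant cells, rose from 0.226 to 11.03 FPKM. *Dpcr1*, a membrane protein of epithelia, had 0.0900 and 7.25. *Krt8*, a keratin of simple epithelia, rose from 0.690 to 22.0, and *Ctse*, an aspartic protease, from 3.41 to 90.5. *Pnoc*, the precursor of the peptide nociceptin, had 0.323 and 16.7 FPKM. *Alas2* and *Hbb-b2* of the erythroid lineage and *Lama1* of basement membranes were also among the 15, as was *Ctgf*.

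**Figure D3:**
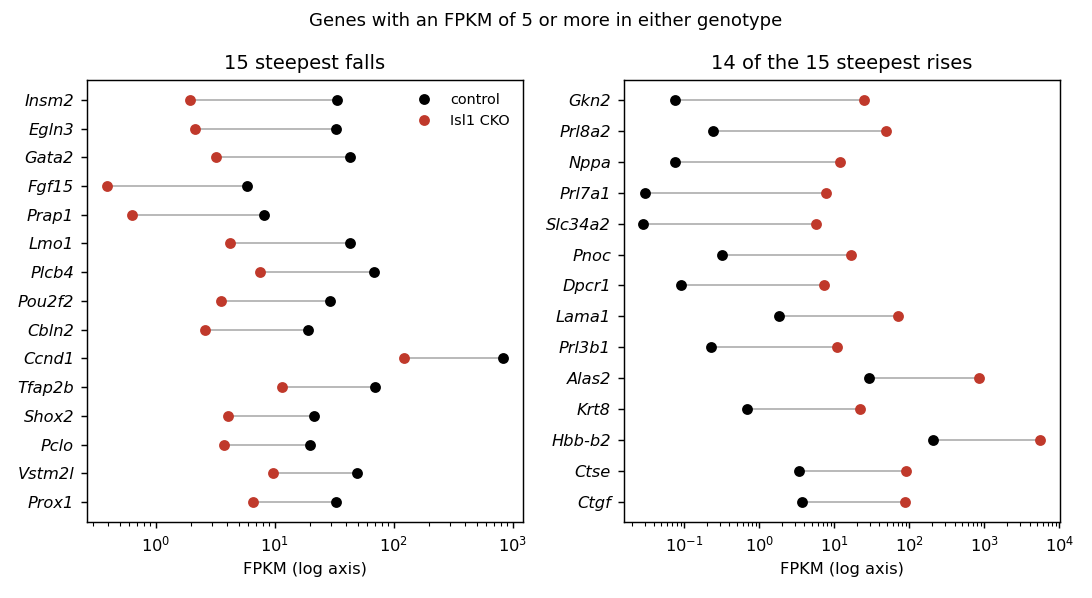
FPKM in control (black) and Isl1 CKO ganglia (red) for the 15 genes with the steepest falls and 14 of the 15 with the steepest rises (genes that reached 5 FPKM in control or CKO), on log axes with 1 combined value per point. The falls start between 5.80 and 831 FPKM in control ganglia, and most of the rises start under 1 FPKM.

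Markers of other tissues formed the lists with the highest medians. Of 32 erythroid genes in the table, *Hbb-y*, an embryonic beta-like globin, had 7552 FPKM in control and was listed at 0 in CKO ganglia, and was left out by the rule. Of the other 31, 30 rose and 1 fell, with a median of 3.26. The gene that fell was *Sptb*, the spectrin chain that is also made by neurons, at 16.1 and 9.68 FPKM. *Hba-x*, the embryonic alpha-like globin, rose from 2572 to 53627 FPKM and was the most abundant gene of the list. *Hbb-b2*, a beta globin, had 208 and 5489, and *Hba-a2*, an alpha globin, 124 and 2720. The adult globin genes exist in near-identical copies that share rows of the table, so the split between copies is uncertain. *Alas2*, the first enzyme of haem synthesis in erythroid cells, rose from 29.0 to 859. The 31 genes took 0.902% of the summed FPKM of control ganglia and 12.7% of that of CKO ganglia. With *Hbb-y* the control share was 2.55%. At E14.5, where 29 of the 31 had a ratio, their summed FPKM was 1832 in wildtype and 2096 in hypomorphic ganglia.

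GATA factors, among them the erythroid factor GATA1, bind the letters AGATAA. The promoters of *Alas2* and of *Slc4a1*, the anion exchanger of the red cell membrane (22.6 and 274 FPKM), are shown because they hold them, with the same window and build. They lie at chrX:146981668-146981967, plus strand, and at chr11:102226545-102226844, minus strand. Capitals mark AGATAA or its reverse complement.
Alas2: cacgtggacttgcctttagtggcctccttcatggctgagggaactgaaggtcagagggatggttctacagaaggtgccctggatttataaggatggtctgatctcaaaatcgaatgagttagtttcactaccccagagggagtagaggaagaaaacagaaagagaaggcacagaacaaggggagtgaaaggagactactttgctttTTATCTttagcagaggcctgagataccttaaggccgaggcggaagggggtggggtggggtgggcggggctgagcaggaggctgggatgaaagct
Slc4a1: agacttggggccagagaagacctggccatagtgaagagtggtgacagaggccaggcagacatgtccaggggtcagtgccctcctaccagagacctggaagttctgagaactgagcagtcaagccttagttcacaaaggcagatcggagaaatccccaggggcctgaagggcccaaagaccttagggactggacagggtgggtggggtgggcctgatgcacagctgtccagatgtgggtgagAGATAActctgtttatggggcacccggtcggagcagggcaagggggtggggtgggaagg
Of 27 erythroid genes with a promoter, 13 (48.1%) held the letters on either strand, against 6.48% of the genes kept and 10.2% of all promoters. Among genes at least 2-fold higher they were in 11.9% of 978 promoters, and in 10.8% without the erythroid list. Among genes at least 2-fold lower they were in 6.26%. The erythroid list was written from textbook knowledge, so its share describes the list and not the change in CKO ganglia.

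Most epithelial and extraembryonic markers in the table were higher in CKO than in control ganglia. Of 15 genes of surface and internal epithelia in the table, out of 28 listed, 14 rose (median 3.15). Since 9 of the 15 had less than 1 FPKM in control and entered the table only through CKO, that count was in part set by the filter, and the median was 2.28 among genes that reached 1 FPKM in both genotypes and 1.38 with a pseudocount of 1. The list summed to 27.1 FPKM in control and 121 in CKO ganglia. *Krt18*, the partner of *Krt8* in simple epithelia, rose from 2.13 to 22.6 and *Krt19* from 1.12 to 10.8, while *Spint2*, a protease inhibitor, was at 11.8 and 14.9. Of 10 keratin genes by symbol, 9 rose, and 6 of the 10 had less than 1 FPKM in control. The 6 genes of the placental prolactin family in the table all had less than 1 FPKM in control, so they had to be higher in CKO (median 4.89). Among 15 trophoblast and decidua genes, 10 rose and 2 fell, and the 2 that fell, *Hand1* (224 to 85.9 FPKM) and the imprinted gene *Peg10* (40.8 to 23.7), are also expressed in control ganglia. The median of the list was 1.43 and was 0.38 among genes that reached 1 FPKM in both genotypes. Of 46 genes on that list, 15 were in the table, and 7 of them had less than 1 FPKM in control. The trophoblast and decidua list summed to 304 FPKM in control and 253 in CKO ganglia, with *Hand1* its most abundant gene.

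All 28 genes of a parietal yolk sac list were higher in CKO ganglia, and 24 of them rose (median 1.48). The parietal yolk sac lines the yolk cavity against the trophoblast and secretes a thick basement membrane. *Lama1*, the laminin chain of that membrane, at chr17:68046605-68171985 on the plus strand, rose from 1.82 to 70.8 FPKM. *Srgn*, a proteoglycan of secretory granules, rose from 2.46 to 48.9. *Gata4*, a transcription factor of endoderm, heart and gonad, was at 0.420 and 5.67. *Vim*, the most abundant gene of the list and an intermediate filament of many cell types, had 781 and 1123 FPKM. Of the list, 18 genes reached 5 FPKM in control and 24 in CKO ganglia. It summed to 1482 FPKM in control and 3233 in CKO ganglia. At E14.5, where all 28 had a ratio, the sums were 2231 in wildtype and 2058 in hypomorphic ganglia. Expression of the list was thus not particular to CKO ganglia.

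Blood and connective tissue lists were higher to a smaller extent. Of 20 macrophage genes 18 rose (median 1.24), with *Pf4*, a chemokine of platelets and fetal macrophages, at 8.52 and 41.0 FPKM, *Laptm5*, a lysosomal protein of blood cells, at 4.21 and 14.2, and *F13a1* at 2.75 and 8.47. Of 25 endothelial genes 8 rose (median 0.49, rescaled 4). *Vwf* had 2.48 and 5.63 FPKM and *Ramp2*, a receptor-modifying protein of endothelium, 15.7 and 24.8. Of 26 mesenchyme genes 16 rose (median 0.77), and the rescaled count was 11. *Col1a2*, a chain of fibrillar collagen, had 193 and 352 FPKM. Muscle lists had medians of 0.70 (skeletal, 13 of 23 rose, rescaled 5 and centred by length 7), 0.71 (smooth and contractile, 12 of 17 rose) and 0.86 (heart, 11 rose and 2 fell of 16). *Actc1*, the actin of developing striated muscle, had 103 and 173 FPKM, and *Myl7*, the light chain of atrial muscle, 2.36 and 25.4. Cartilage, gonad and mesonephros, and liver lists were represented by only 10, 11 and 8 genes, of which 8, 7 and 6 rose, and of the cartilage list 4 rose when rescaled. Their medians were 0.77, 2.35 and 0.82. The gonad and mesonephros median, higher than that of the yolk sac list, was 0.68 among genes with 1 FPKM in both genotypes. In the heart, gonad and mesonephros, and liver lists 6, 3 and 3 genes had less than 1 FPKM in control. These were in the table only through CKO. *Hsd3b1*, a steroid dehydrogenase, had 0.622 and 7.44 FPKM, and *Trf*, the transferrin gene, 12.2 and 19.6. Lists share genes, as *Gata4* stands in the heart, gonad and yolk sac lists. The part of other tissue in any difference described here was not tested.

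Lists of the extracellular matrix, which share members with the mesenchyme and yolk sac lists, had medians from 0.55 to 0.76. Of 27 collagen genes 12 rose and 0 fell (median 0.56). The rescaled count was 7, and 18 of 26 rose when centred by length (median 0.81). *Col4a1* and *Col4a2*, the network-forming collagens of basement membranes, rose most, from 36.1 to 174 and from 26.7 to 112 FPKM. Of 51 glycoproteins and proteoglycans 31 rose and 0 fell (median 0.69). *Sparc*, a collagen-binding glycoprotein, rose from 129 to 369 FPKM, and the laminin chains *Lamb1* and *Lamc1* from 37.7 to 119 and from 35.0 to 108. Of 8 laminin genes by symbol, 7 rose. Of 23 genes for collagen modification and secretion 16 rose and 1 fell (rescaled 10 and 1), with *Serpinh1*, the collagen chaperone, at 192 and 490 FPKM and *P4ha2*, a collagen prolyl hydroxylase, at 14.3 and 41.6. Among 43 matrix proteases and inhibitors 22 rose and 3 fell. *Ctsk* and *Ctsl*, cysteine proteases, rose from 3.51 to 10.3 and from 66.7 to 186. Rescaled, 19 of the 51 glycoprotein genes rose and 1 fell, and the median was 0.46, or 0.85 when centred by length. Of 13 integrin genes 6 rose (rescaled 3, centred by length 10), among them *Itgb5* (13.6 to 32.5 FPKM) and *Itga6*, a laminin receptor chain (18.2 to 35.7). *Itga1*, a collagen receptor chain, fell from 9.56 to 3.76.

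YAP and TEAD carry signals of cell shape and tension to the nucleus. Of 25 of their targets and components 16 rose and 2 fell (median 0.77). Among the 25, 3 had less than 1 FPKM in control and were in the table only through CKO. *Ctgf*, a matrix protein that also binds growth factors, rose from 3.76 to 88.0 FPKM. *F3*, the tissue factor of blood clotting, rose from 1.47 to 21.4, and *Cyr61*, a relative of *Ctgf*, from 3.93 to 15.4. *Tead1*, a DNA-binding partner of YAP, fell from 33.9 to 22.0, and *Wwc1*, an upstream regulator, from 9.35 to 5.41. *Birc5*, the most abundant gene of the list in control ganglia, which also serves cell division, was at 97.4 and 75.4. Scaled without erythroid genes, 12 of the 25 rose and 4 fell.

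TEAD factors bind the letters GGAATG. Of 23 promoters of the YAP and TEAD list, 9 (39.1%) held GGAATG on either strand, against 12.0% of the genes kept and 13.2% of all promoters. The share was 16.1% among genes at least 2-fold higher and 11.1% among genes at least 2-fold lower. The YAP and TEAD list was written from known targets, so its share describes the list and not the change in CKO ganglia.

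Other signalling lists had medians between 0.35 and 0.76. Of 19 genes of retinoic acid signalling, which patterns the trunk, 10 rose and 1 fell (median 0.73, rescaled 6 and 2). *Cyp26b1*, which degrades retinoic acid, rose from 2.01 to 7.61 FPKM, and the retinoid-binding protein *Crabp1* from 386 to 664. The receptor gene *Rara* fell from 14.5 to 8.79. Of 25 TGFb and activin genes 10 rose and 1 fell, but 4 and 5 when rescaled. *Tgfb1*, a ligand, was at 4.40 and 9.60 FPKM, and *Acvr2b*, an activin receptor, fell from 13.7 to 7.595. Of 21 FGF genes 8 rose (rescaled 4) and 1 fell, the latter being *Fgf15*. Of the 21, 5 had less than 1 FPKM in control and 1 in CKO ganglia. The membrane proteins *Flrt2* and *Flrt3* rose from 15.5 to 28.8 and from 12.9 to 22.4. In Hedgehog signalling 4 of 15 genes rose (8 when centred by length, median 0.61), among them the coreceptor *Gas1* (23.0 to 43.6 FPKM) and the signal transducer *Smo* (17.8 to 32.3).

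In the group of VEGF, PDGF, ephrin and endothelin genes 11 of 29 rose and 0 fell, but 4 and 3 when rescaled. *Ednrb*, the endothelin receptor of neural crest cells, rose from 89.98 to 200.3 FPKM. Of 19 IGF genes 7 rose and 1 fell (rescaled 3 and 2). *Igfbp4*, a binding protein, rose from 142 to 249.8 FPKM, *Igf2* was at 374 and 519, and *Igf2bp1*, an RNA-binding protein of embryonic tissue, fell from 27.8 to 14.2. Among 23 chemokine and cytokine genes 9 rose, led by *Ackr3*, a chemokine scavenger (17.8 to 74.5), and 1 fell, the receptor *Lifr* (11.6 to 6.56). Of 19 interferon response genes 11 rose, with *Ifitm2* at 202 and 450 FPKM and *Rsad2*, an antiviral enzyme, at 0.788 and 6.92. Of the 19, 4 had less than 1 FPKM in control and were in the table only through CKO. Of 22 immediate early genes 10 rose, with *Junb* at 2.44 and 5.93 and *Klf4* at 2.74 and 6.22.

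**Figure D4:**
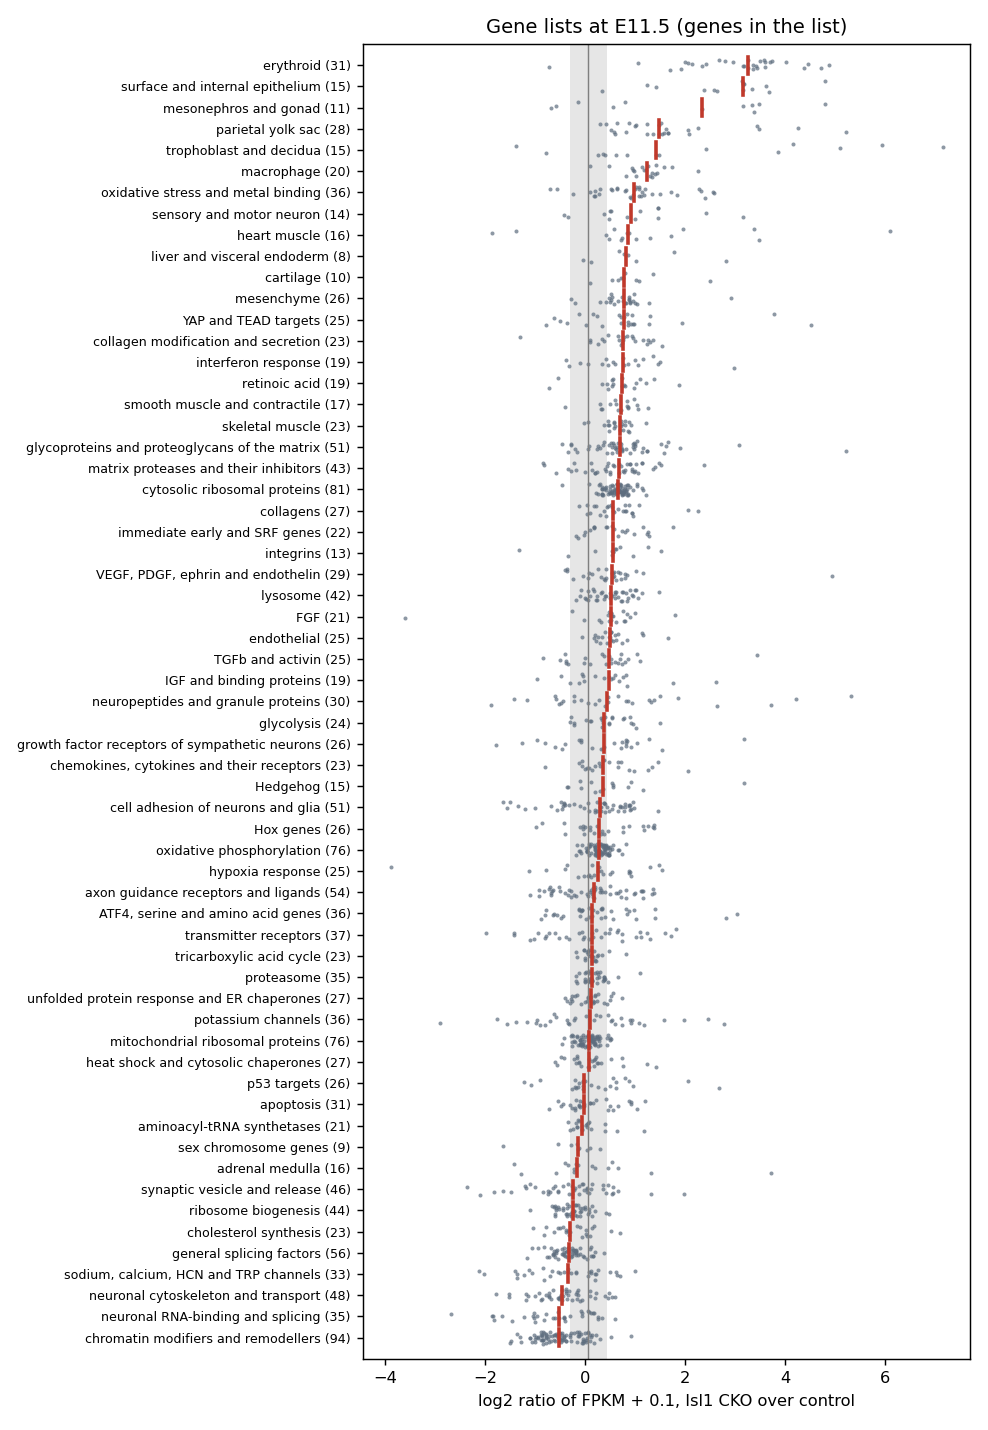
Log2 ratio of CKO over control for every gene (grey points, jittered vertically) of 61 gene lists, ordered by their median (red bar), with the number of genes in parentheses. The shaded band spans the quartiles of all 13220 genes, from -0.29 to 0.44, and the line in it marks their median of 0.05.

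Lists of neuronal structure and release had medians below 0, with members in both directions. Of 48 genes of the neuronal cytoskeleton and axonal transport, 16 fell and 1 rose (median -0.45, and -0.37 when centred by length), and 29 fell when rescaled. *Nefm*, a neurofilament, fell from 724 to 253 FPKM, *Ank2*, an ankyrin that anchors membrane proteins to the cytoskeleton, from 98.5 to 28.5, and *Kif26b*, a kinesin-like protein, from 18.1 to 7.95. *Tuba1a*, a tubulin and the most abundant gene of the list, was at 1399 and 1612. Of 46 genes of synaptic vesicles and release 15 fell and 3 rose (median -0.23). Beside *Pclo*, *Ppfia2*, a scaffold of the active zone, fell from 10.7 to 2.96 FPKM. *Cplx1*, which clamps vesicle fusion, had a log2 ratio of -2.11. *Rab3a*, a small GTPase on vesicles, rose from 22.5 to 35.3, and *Syt5*, a synaptotagmin, from 5.09 to 12.9.

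Neuropeptide genes were spread more widely than those of cytoskeleton and release. Of 30 neuropeptide and granule genes 13 rose and 5 fell (rescaled 12 and 8), and their log2 ratios ran from -1.89 to 5.31. Among the 30, 4 had less than 1 FPKM in control and were in the table only through CKO. *Penk*, the precursor of enkephalins, at chr4:4060678-4065966 on the minus strand, rose from 7.29 to 97.7 FPKM. *Pyy*, a relative of neuropeptide Y, and *Pnoc* were the other steep rises. *Npy* itself fell from 123 to 81.6 FPKM. *Scg5*, a chaperone of granule enzymes, rose from 25.5 to 40.4. *Cartpt*, the most abundant peptide gene, was at 638 and 881 and did not pass 1.5-fold. Genes of the adrenal medulla, a sister lineage of sympathetic neurons, went both ways, with 3 falls and 3 rises among 16.

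Ion channel genes were counted in 2 lists. Of 33 sodium, calcium, HCN and TRP channel genes 12 fell and 4 rose (median -0.35, and -0.09 when centred by length). Less than 1 FPKM was found for 1 gene in control and 4 in CKO ganglia. Such genes were in the table only through the other genotype. *Cacng4*, an auxiliary calcium channel subunit, fell from 71.1 to 32.5 FPKM, the calcium channel *Cacna1d* from 5.75 to 2.69, and the sodium channel *Scn3a* from 17.5 to 9.68. Of 36 potassium channel genes 11 fell and 12 rose, and their median of 0.10 was -0.12 when rescaled. Less than 1 FPKM was found for 6 of the 36 in control and 2 in CKO ganglia. The background channel *Kcnk9* fell from 91.2 to 26.7, *Kcnd2*, a channel of the transient current, from 12.6 to 4.21, and *Kcnmb2*, a subunit of calcium-gated channels, from 5.90 to 2.21. *Kcna5* rose from 5.06 to 15.3, the background channel *Kcnk1* from 0.933 to 5.58, and *Kcnip4*, a subunit that partners *Kcnd2*, from 0.975 to 7.29.

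Of 37 transmitter receptor genes 10 fell and 12 rose (rescaled 12 and 8). These counts were in part set by the filter. In this list 6 genes had less than 1 FPKM in control and 4 in CKO ganglia. Such genes were in the table only through the other genotype. *Agtr2*, an angiotensin receptor, fell from 583 to 219 FPKM, the cannabinoid receptor *Cnr1* from 48.3 to 17.9, and the glutamate receptor *Gria2* from 10.9 to 5.01. The nicotinic subunits *Chrnb4* and *Chrna4* rose from 6.47 to 14.2 and from 4.28 to 7.24, and the adrenergic receptor *Adra2a* from 4.85 to 9.95. Of 26 growth factor receptor and ligand genes 11 rose and 5 fell. Here 4 had less than 1 FPKM in control and 1 in CKO ganglia. *Alk*, a receptor kinase that is mutated in neuroblastoma, fell from 7.80 to 3.93, and *Gfra1*, a coreceptor of GDNF, rose from 13.99 to 26.4. *Nrtn*, a ligand of that family, rose from 0.692 to 7.10. *Ret*, the shared receptor, was at 106 and 97.6.

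Among 54 axon guidance genes 15 rose and 10 fell, and their median of 0.17 was -0.06 when rescaled. *Nrp2*, a semaphorin receptor, fell from 93.7 to 49.1 FPKM and *Efna5*, an ephrin, from 21.3 to 11.2. The secreted cues *Sema3b*, *Sema3d* and *Ntn4* rose, *Sema3d* from 4.16 to 10.7. Of 51 neuronal and glial adhesion genes 15 rose and 7 fell (rescaled 8 and 14), and 22 of 48 rose when centred by length (median 0.53). *Ncam1*, the neural cell adhesion molecule, fell from 65.6 to 20.8 and *Nfasc*, of the axon initial segment, from 23.8 to 7.98, while *Cdh11* rose from 57.9 to 99.8. A list of 14 genes of sensory and motor neurons, relatives that also depend on *Isl1*, had 8 rises (median 0.92), and 3 of the 14 reached 5 FPKM in control and 4 in CKO ganglia. Of the 14, 5 had less than 1 FPKM in control and were in the table only through CKO. *Slc5a7*, the choline carrier, rose from 2.64 to 14.5, and *Slc18a3*, which loads acetylcholine into vesicles, was at 33.3 and 47.6.

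As deposited, the chromatin and the neuronal RNA-binding lists had the lowest medians of the 61. Of 94 chromatin modifiers and remodellers 41 fell and 1 rose (median -0.52), and 62 fell when rescaled. *Satb1*, an organizer of chromatin loops, fell from 24.4 to 8.74 FPKM, and *Kmt2a* and *Kdm6b*, which write and erase histone methylation, had log2 ratios of -1.51 and -1.37. *Hdac2*, a deacetylase and the most abundant gene of the list, was at 203 and 205. *Smarcd3*, a subunit of the BAF remodelling complex, rose from 8.21 to 15.5. These transcripts are long, with a median of 6243 bases against 3066 for all genes. Centred by length, 14 of 87 fell and 2 rose, with a median of -0.29, so most of the falls no longer passed. At E14.5 few genes of any class passed 1.5-fold (1.11% of 12550 fell and 1.9% rose), and 0 of the 94 did.

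Of 35 neuronal RNA-binding and splicing genes 16 fell and 1 rose (median -0.52, and -0.40 when centred by length). *Lin28b*, which blocks the maturation of let-7 microRNAs, fell from 7.98 to 2.17 FPKM, and *Srrm3*, a splicing factor of neuronal microexons, from 9.60 to 2.65. *Celf2* rose from 8.24 to 12.6. Of 56 general splicing factors 13 fell and 0 rose (median -0.31, rescaled 26 fell). *Hnrnpl* fell from 123 to 55.1 and *Srrm2*, a scaffold of nuclear speckles, from 86.4 to 41.4, and *Hnrnpk* was at 501 and 454. Their median length was 2764 bases, and centred by length 16 of 56 fell. Of 44 ribosome biogenesis genes 6 fell and 0 rose (median -0.24, rescaled 16 fell), with *Nolc1*, a nucleolar chaperone, at 44.5 and 20.8 FPKM. Among 21 aminoacyl-tRNA synthetases 0 fell and 2 rose.

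Cytosolic ribosomal protein genes had a median above 0. Of 81 cytosolic ribosomal protein genes 51 rose and 0 fell, and 80 were above 0 (median 0.65). *Rpl39* rose from 664 to 1555 FPKM, *Rplp0* from 1025 to 2285, and *Rps2* from 1176 to 2569. The list took 14.8% of all FPKM in control and 17.6% in CKO ganglia. These transcripts are short, with a median of 855 bases, and have many processed copies in the genome whose reads may be shared. Centred by length, 10 of 77 rose (median 0.37), and scaled without erythroid genes 14 of 81 rose and 1 fell. Of 76 mitochondrial ribosomal protein genes, with a median length of 1213 bases, 0 rose and 0 fell (median 0.08). The 2 sets of ribosomal proteins thus lay apart at both scalings and after centring, where the mitochondrial median was -0.18.

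The next list holds genes for oxidative stress and metal binding. Of 36 genes 25 rose and 1 fell (median 0.99), and 20 rose when centred by length. *Fth1*, the ferritin heavy chain, at chr19:10057193-10059582 on the plus strand, rose from 543 to 3217 FPKM, and *Ftl1*, the light chain, from 1317 to 2769. *Gclm*, a subunit of the first enzyme of glutathione synthesis, rose from 13.8 to 81.9, and the metallothionein *Mt1* from 14.98 to 78.8. *Txnrd1*, a thioredoxin reductase, fell from 72.2 to 44.5. The letters TGACNNNGC of the antioxidant response element were in 22.2% of the 36 promoters and in 14.2% of the genes kept. This list too was written from textbook knowledge, and the share describes the list. Red blood cells also hold much ferritin and many peroxide-removing enzymes, and the part of the 30 raised erythroid genes in these values was not tested.

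Lists of energy metabolism were nearer to the median of all genes. Of 76 oxidative phosphorylation genes 4 rose and 0 fell (median 0.28, and 0.00 when centred by length), with *Ndufa13* at 30.7 and 54.1 FPKM and *Atp5b* at 724 and 849. In the tricarboxylic acid cycle 1 of 23 genes rose, *Suclg2*, at 10.2 and 18.1. Of 24 glycolysis genes 7 rose, among them *Hk2*, a hexokinase (3.51 to 7.19), and *Gapdh* was at 816 and 1048. The hypoxia list had 7 rises and 3 falls among 25 genes (rescaled 7 and 5). Beside *Egln3*, *Epas1*, which encodes the alpha subunit of a hypoxia-inducible factor, fell from 31.5 to 14.4 FPKM, whereas *Bnip3l*, a mitophagy receptor also needed by maturing red cells, rose from 50.6 to 141.

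The cholesterol synthesis list had a median below 0. Of its 23 genes 4 fell and 1 rose (median -0.31, rescaled 9 and 0). *Sc5d*, a sterol desaturase late in the pathway, fell from 17.2 to 9.67 FPKM. *Tm7sf2*, a sterol reductase, rose from 12.6 to 20.4. Of 42 lysosome genes 20 rose and 0 fell (median 0.53, rescaled 10 and centred by length 13), with *Ctsb* and *Ctsd*, cathepsins, at 43.8 and 96.3 and at 82.6 and 172 FPKM. Of 36 ATF4 and amino acid genes 9 rose and 5 fell (rescaled 9 and 8). Among the 36, 4 had less than 1 FPKM in control and were in the table only through CKO. *Trib3*, a pseudokinase of the stress response, rose from 2.15 to 18.4 and *Slc7a3*, an arginine carrier, from 2.16 to 15.9, while *Mthfd2*, of mitochondrial folate metabolism, fell from 42.7 to 24.8. The remaining stress lists stayed near 0. Among 27 genes of the unfolded protein response 1 rose, among 27 cytosolic chaperones 4 rose and 1 fell (rescaled 2 and 4), and among 35 proteasome genes 2 rose. *Cryab*, a small heat shock protein, rose from 14.1 to 38.0 FPKM, and *Psme2*, an activator of the proteasome, from 29.2 to 62.2. Of 26 p53 target genes 7 rose and 3 fell (median -0.02, rescaled 4 and 3), with *Zmat3* at 11.8 and 5.02 and *Phlda3* at 8.68 and 17.03. Of 31 apoptosis genes 6 rose and 1 fell (median -0.03, rescaled 5 and 4). *Bcl2*, which protects from death, fell from 9.34 to 5.59, and its relative *Bcl2l1* rose from 24.1 to 55.4.

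**Figure D5:**
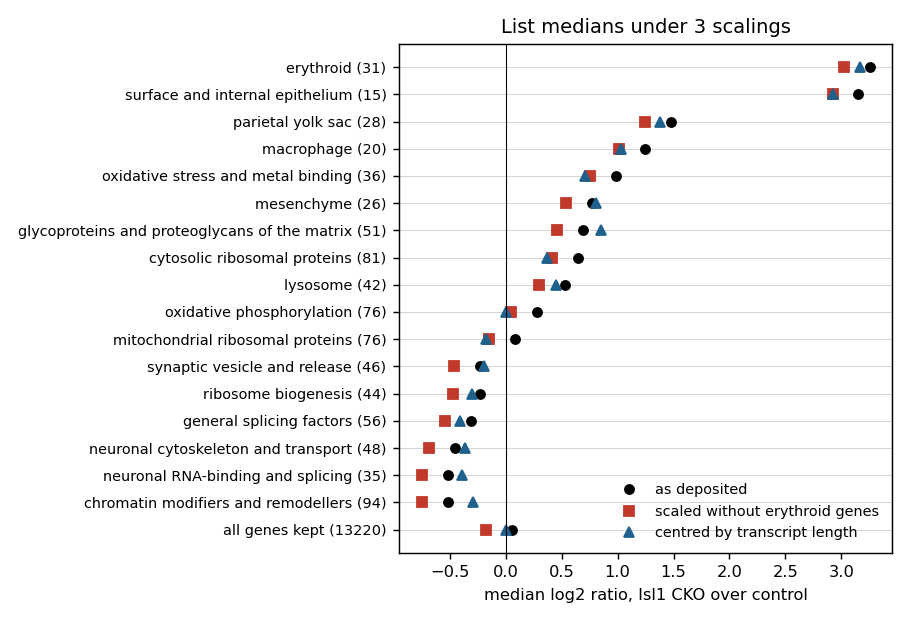
Median log2 ratio (CKO over control) of 17 gene lists and of all genes under 3 scalings, with the number of genes in parentheses. Circles are the values as deposited, squares those scaled without erythroid genes, and triangles those centred by transcript length, for which the chromatin list moved from -0.52 to -0.29 and the cytosolic ribosomal proteins from 0.65 to 0.37.

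Hox genes, which record position along the body, did not move as a block. Of 26 genes 9 rose and 2 fell (median 0.28, rescaled 7 and 4). *Hoxb6*, *Hoxb8* and *Hoxb9* rose to similar extents, from 4.87 to 12.7, from 7.29 to 18.99 and from 7.10 to 16.3 FPKM. *Hoxc4*, the most abundant Hox gene in control ganglia, fell from 40.4 to 20.4, and *Hoxd4* from 5.92 to 3.20. Of 22 forkhead genes counted by symbol, 12 rose and 2 fell.

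Of 9 sex chromosome genes only *Xist* passed 1.5-fold. *Xist*, the RNA of the inactive X chromosome, at chrX:100655714-100678556 on the minus strand, fell from 43.7 to 13.99 FPKM. It had no protein-coding transcript length and was not centred by length, so the part of length in its fall was not tested. The Y-linked genes *Ddx3y*, *Eif2s3y*, *Kdm5d* and *Uty*, named here after their values were seen, had 9.58 and 11.8, 9.43 and 9.75, 3.75 and 3.34, and 3.29 and 3.51 FPKM in control and CKO ganglia. *Ddx3x*, the X-linked partner of *Ddx3y*, was at 163 and 112. *Xist* and Y-linked RNA were thus present in both genotypes, and the share of male and female embryos in the pools cannot be told apart from an effect of genotype here.

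Symbol families were counted besides the lists. Of 345 zinc finger genes of the *Zfp* series 29 fell and 9 rose (median -0.14), and scaled without erythroid genes 89 fell and 3 rose. Of 46 ubiquitin-specific proteases 8 fell and 1 rose. Of 31 kinesins, which include motors of cell division, 17 fell and 3 rose. Histone cluster genes went the other way, with 16 rises and 2 falls among 31. That count was in part set by the filter, since 9 of these histone genes had less than 1 FPKM in control ganglia and 1 in CKO ganglia. Most of their messages lack a polyA tail, and the libraries were made from polyA RNA. Of 12 serpins 10 rose, of 10 Wnt ligands 7 rose and 1 fell, and of 12 chemokines 7 rose, and 6, 3 and 5 of these genes had less than 1 FPKM in control. Solute carriers had 44 rises and 18 falls among 217. Among the 217, 18 had less than 1 FPKM in control and 8 in CKO ganglia. All 7 chaperonin subunits stayed within 1.5-fold, and of 22 cilium transport genes 1 fell.

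The genes of E11.5 had other values in E14.5 hypomorphic ganglia, where *Isl1* fell from 162 FPKM in the wildtype to 83.1. Of all 13125 genes compared there 1.61% fell and 2.11% rose, and of the 12550 with a ratio at both stages 1.11% fell and 1.9% rose. Of the 1554 genes that fell at E11.5 and had a ratio at E14.5, 41 (2.64%) fell and 79 (5.08%) rose there. Of 2063 genes that rose at E11.5, 42 (2.04%) fell and 83 (4.02%) rose. Across 12550 genes Spearman's rho between the log2 ratios of the stages was 0.06. Of the 15 steepest falls, 14 had a ratio at E14.5, 4 of them were lower there, and 2 were at least 1.5-fold lower. These were *Egln3*, at 123 and 72.5 FPKM in wildtype and hypomorphic ganglia, and *Lmo1*, at 65.6 and 30.9. *Insm2* had 94.8 and 82.5, *Pou2f2* 49.0 and 51.1, and *Shox2* 26.8 and 51.3. Of the 15 steepest rises, 6 had a ratio at E14.5 and 0 rose 1.5-fold there. *Lama1* had 2.19 and 1.81 FPKM, and *Ctgf* 3.54 and 4.08. The comparisons differ in age and in allele, whose effects cannot be told apart here, and the authors normalized the tables separately.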

How the data were processed

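RNA of sympathetic ganglia was sequenced from 2 libraries per genotype at E11.5 and at E14.5. The deposited tables give FPKM values that the authors made with TopHat and cuffdiff, with both libraries of each genotype merged into a single value, from oligo(dT)-selected RNA made into cDNA with a SMARTer kit. The study's methods name mm9 and later program versions, whereas the submitters' processing notes name Bowtie, TopHat 1.3.1, Cuffdiff 1.3.0 and build dm3, which is a fly build. Mouse gene symbols and mm9 are used here. The tables also hold the authors' own fold changes and p-values, which were not used. Depth is unknown, and no spread between libraries can be had.

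The log2 ratio of CKO to control was computed with a pseudocount of 0.1 (Python 3.11.15, pandas 2.3.3, scipy 1.17.1), over 13220 genes, after leaving out microRNA and snoRNA symbols and rows listed at 0. Genes at least 1.5-fold apart were counted. The counting steps were tested on simulated data. The 61 lists were written from textbook knowledge, and the lists, the families and the members were chosen with earlier results of these data known. Genes named are the 15 steepest in each direction that reached 5 FPKM, the most abundant gene of each list, up to 3 falls and 3 rises of each list, *Isl1* and markers of the tissue. *Slc4a1* was chosen for its promoter, and *Rn45s* and the Y-linked genes were named after their values were seen. Transcript lengths, coordinates and promoters came from GENCODE vM1 on NCBIM37 (mm9). Alternatives were other pseudocounts, filters, scalings and a fold threshold of 2. Centring by transcript length was chosen after seeing the data. A few genes that the rule names, and a promoter, are not reported here.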

Additional observations from a re-analysis of the deposited data

Results flagged for a closer look

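Of 4 rows left out because a genotype was listed at 0, 3 had a value in CKO ganglia and none in control ganglia, which lies outside the comparison of the 13220 genes. *Rnu11* and *Rnu12*, small nuclear RNAs of the minor spliceosome, had 37.2 and 10.3 FPKM in CKO ganglia. The shared row of *Prl2c3* and *Prl2c4*, placental prolactin-family genes, had 2.38 FPKM in CKO ganglia. *Hbb-y*, an embryonic beta-like globin, had 7552 FPKM in control ganglia and was listed at 0 in CKO ganglia, against the rise of the other globin rows. An exact 0 in such a table can be a failed estimate, and no fold is given.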

How the results depend on the processing

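The count of genes at least 1.5-fold higher was 2453 and became 1468 when only genes that reached 5 FPKM in a genotype were kept. Scaled without erythroid genes, 2865 genes were lower and 1565 higher. With a fold threshold of 2, 510 were lower and 1053 higher. Under the other settings both counts stayed within 1.5 times their values. Of 549 list medians recomputed under the alternatives, 543 moved by less than 0.585 (the log2 of 1.5) and 6 by more. The sign changed for 17 of them, each with a median within 0.585 of 0 as deposited: 9 when scaled without erythroid genes, 6 when centred by length, 1 for genes that reached 5 FPKM and 1 for genes with 1 FPKM in both genotypes. No list whose median was past 1.5-fold changed sign. Those that moved were the trophoblast list (0.80 with a pseudocount of 1 and 0.38 for genes with 1 FPKM in both genotypes), the epithelial list (1.38 and 2.28) and the mesonephros list (3.15 for genes that reached 5 FPKM and 0.68 for genes with 1 FPKM in both genotypes). Of 266 values of single genes, 17 moved with the pseudocount and 0 changed sign. The causes were not tested. Leaving out a library in turn was not run for want of separate values. No paired analysis was possible because each deposited column combines the 2 libraries of a genotype. With depth unknown, the precision of low values is unknown too.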

Other observations

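Levels of some genes stood far apart between the tables of the 2 stages, which were normalized separately, so that only their values are given. Cytosolic ribosomal protein genes summed to 66261 FPKM in E11.5 control ganglia and to 8840 in E14.5 wildtype ganglia. *Rps2* had 1176 and 25.3 FPKM, *Hspa8*, a chaperone, 1781 and 27.6, and *Cycs*, cytochrome c, 68.2 and 1.23. Such genes have processed copies in the genome.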
